A study of Drosophila melanogaster with 2 samples.

Results

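The genes described here are 10 of the Drosophila melanogaster genes that encode bHLH-PAS transcription factors: gce, Met and tai of juvenile hormone signalling, the hypoxia factor gene sima, the partner gene tgo, the midline and tracheal genes sim and trh, ss, and the clock genes Clk and cyc. They are 10 of 13968 protein-coding genes on the main chromosomes, and they were chosen by name from the family with the peak results of these data known. The values that led to the choice were the presence of a peak summit in the span of a gene or within 1 kb upstream, its location class, and the signal of the strongest candidate, so all of these are given as descriptions with no test. A gene is called bound where such a summit lay in a thresholded list. Chromatin immunoprecipitation with sequencing (ChIP-seq) was done on whole embryos, 0 to 24 hours old, of a transgenic strain, dimm-GFP, that expressed a fusion of the transcription factor dimm with eGFP, and an anti-GFP antibody recovered the chromatin that the fusion was bound to. There is 1 group of 2 biological replicates, and both carry the same transgene, with no second genotype, treatment or time. The labels describe the transgene as an insertion that targets dimm and give neither the promoter that drives it nor the tissues that express it, and whole embryos of this age mix all tissues. The deposited values describe peaks and not reads: library depth is unknown, no counting error can be given, and no control library was analysed here.

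Proteins of the bHLH-PAS family bind DNA as pairs. The basic helix-loop-helix part contacts DNA and helps to pair the partners, and the PAS domains add contacts between partners and in some members hold a ligand or sense a signal. In Drosophila, tgo is the shared partner of sima, sim, trh, ss and dysf, while cyc is the partner of Clk. Met and gce are receptors of juvenile hormone and act with the coactivator tai. The factor that was pulled down, dimm, is a bHLH protein without PAS domains that is known from neuroendocrine cells.

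Of the 10 genes, 5 held at least 1 summit of the conservative list, the list of regions that passed the authors' threshold on reproducibility between the replicates. These were gce, sima, sim, trh and tai. Together they held 6 of the 1739 regions of that list, with sima holding 2 and each of the others 1. Met, tgo, ss, Clk and cyc held none. Over all protein-coding genes, 11.2% held a summit of the same list. The same 5 genes were found in the list of both replicates that is not marked conservative, where the share over all protein-coding genes was 11.6%. Replicate 1's own list held summits at 2 of the 10 genes (gce and sima) and replicate 2's own list at 4 (gce, sima, sim and tai), beside 8.21% and 7.8% of all protein-coding genes. Only gce and sima were bound in the conservative list and in each replicate's own list.

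The bases around the 6 summits are shown because these are the regions on which every later value rests, and because the motifs discussed below are read from them. Each line gives 100 bases to either side of the summit on the + strand of dm6, in lower case, with the base of the summit in the middle. Capitals mark every match to an E-box (CANNTG), to GCGTG or to TACGTG, read on either strand.
gce chrX:15298403-15298603: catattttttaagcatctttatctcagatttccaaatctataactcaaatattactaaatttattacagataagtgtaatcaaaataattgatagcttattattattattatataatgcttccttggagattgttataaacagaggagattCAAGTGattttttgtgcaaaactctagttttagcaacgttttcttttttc
sima first region chr3R:30061203-30061403: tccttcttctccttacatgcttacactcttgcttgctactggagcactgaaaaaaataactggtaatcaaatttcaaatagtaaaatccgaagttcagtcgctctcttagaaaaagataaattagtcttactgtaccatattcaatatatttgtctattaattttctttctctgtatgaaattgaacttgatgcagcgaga
sima second region chr3R:30092708-30092908: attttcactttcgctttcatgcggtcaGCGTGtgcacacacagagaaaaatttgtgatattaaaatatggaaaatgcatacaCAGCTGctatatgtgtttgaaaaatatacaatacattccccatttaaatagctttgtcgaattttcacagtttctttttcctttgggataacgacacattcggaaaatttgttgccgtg
sim chr3R:13068113-13068313: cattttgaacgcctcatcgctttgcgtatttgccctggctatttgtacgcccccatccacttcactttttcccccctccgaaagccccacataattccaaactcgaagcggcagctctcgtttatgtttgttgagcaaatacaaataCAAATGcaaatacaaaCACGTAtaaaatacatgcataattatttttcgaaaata
trh chr3L:377658-377858: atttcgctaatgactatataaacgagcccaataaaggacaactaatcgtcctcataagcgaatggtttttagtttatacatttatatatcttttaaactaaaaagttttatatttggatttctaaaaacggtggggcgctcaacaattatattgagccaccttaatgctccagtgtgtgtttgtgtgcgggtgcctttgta
tai chr2L:9224510-9224710: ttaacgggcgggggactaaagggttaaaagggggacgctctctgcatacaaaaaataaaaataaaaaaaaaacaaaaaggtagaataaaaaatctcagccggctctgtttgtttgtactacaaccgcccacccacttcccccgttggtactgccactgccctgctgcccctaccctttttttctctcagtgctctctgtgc

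The strongest region at any of the 10 genes was at gce, which encodes the juvenile hormone receptor germ cell-expressed bHLH-PAS (FBgn0261703, X, 15297766 to 15319074, + strand). Its signal, the authors' own value for the strength of a peak, was 193 in the conservative list, rank 220 of 1739, with 87.3% of the regions weaker. The signal was 92.7 in replicate 1's ranked list and 97.7 in replicate 2's, ranks 263 and 245 of 106765 and 113898 candidates. Both replicates therefore placed it near the top of their own lists, and both listed it past the threshold. The region (X, 15298351 to 15298654) lay in the first 1 kb of the gene, with its summit 0.737 kb from the 5′ end and 506 bp upstream of the start of the transcript gce-RC. Its class was promoter because the start of an antisense RNA, asRNA:CR44429, lay 286 bp away, and no start of gce itself was within 500 bp. Peaks carry no strand, so the region cannot be assigned to either gene. Of the 4 annotated gce transcripts, 1 has an intron there, its intron 1 of 7892 bp. The next strongest of the 12 candidates at gce had a signal of 28.7 and rank 25805 of the 139701 candidates behind the conservative list. The regions ranked just above and below gce in the conservative list were a promoter shared by alien and CG18661 (194.0) and the promoter of CG3009 (192.4).

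Met, the closest relative of gce and the other juvenile hormone receptor gene (FBgn0002723, X, 11616124 to 11621280), stood at the opposite end. No candidate of any strength lay in its territory in either ranked list of both replicates or in replicate 1's. Replicate 2's ranked list held 6 weak candidates there, the strongest with a signal of 11.2 and rank 60822. In the list behind the conservative one, 15.4% of all protein-coding genes had no candidate. Met lay in an interval of 24.2 kb between neighbouring candidate summits (X, 11601834 to 11626079), and 185 of 138986 intervals (0.133%) were at least as long, beside a median of 629 bp. That is a share by number, and long intervals cover more of the genome than their number shows. The interval was 41.5 kb in replicate 1 and 1.95 kb in replicate 2, so the replicates differed here. Candidates were also sparse along gce, which had 0.538 per kb against a median of 1.15 for genes of 20 kb and over, and no candidate lay in the 13.1 kb after its bound region. Intervals of at least 10 kb without a candidate summit numbered 1127 and covered 16.1% of the 5 large chromosome arms. Why such intervals lack candidates was not tested, and a missing candidate in them does not show that a gene was free of dimm-eGFP.

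The coactivator gene tai (taiman, a homologue of the mammalian p160 coactivators, FBgn0041092, 2L, 9166778 to 9250211, + strand), which also serves the ecdysone receptor, is the longest of the 10 genes at 83.4 kb. Its region of the conservative list (2L, 9224458 to 9224761) had a signal of 70.4 and rank 1261, with 27.5% of the regions weaker. It lay in an intron of 42174 bp that all 6 annotated transcripts share, 48252 bp from the nearest start of tai and 11984 bp from the nearest start of any gene, that of tRNA:Thr-AGT-1-1. In the replicates' ranked lists the overlapping candidates had signals of 30.6 and 37.2, ranks 2087 and 1415, and neither passed the threshold of its own list. Replicate 2's own list held another region of tai that no other list held (2L, 9168372 to 9168651, signal 49.9, rank 809 of 1114). That region lay in intron 1 of 3 of the 6 transcripts, 1734 bp downstream of the start of tai-RH. No candidate overlapped it in replicate 1's ranked list or in either list of both replicates. The conservative list and replicate 2's list thus placed tai among the bound genes through different regions, 57.8 and 1.734 kb from the 5′ end. Much of the gene between these places lay in an interval with no candidate summit, with a length of 42.1 kb among the candidates behind the conservative list, 41.9 kb in replicate 1, 18.7 kb in replicate 2 and 24.9 kb in the other list of both replicates.

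**Figure D1:**
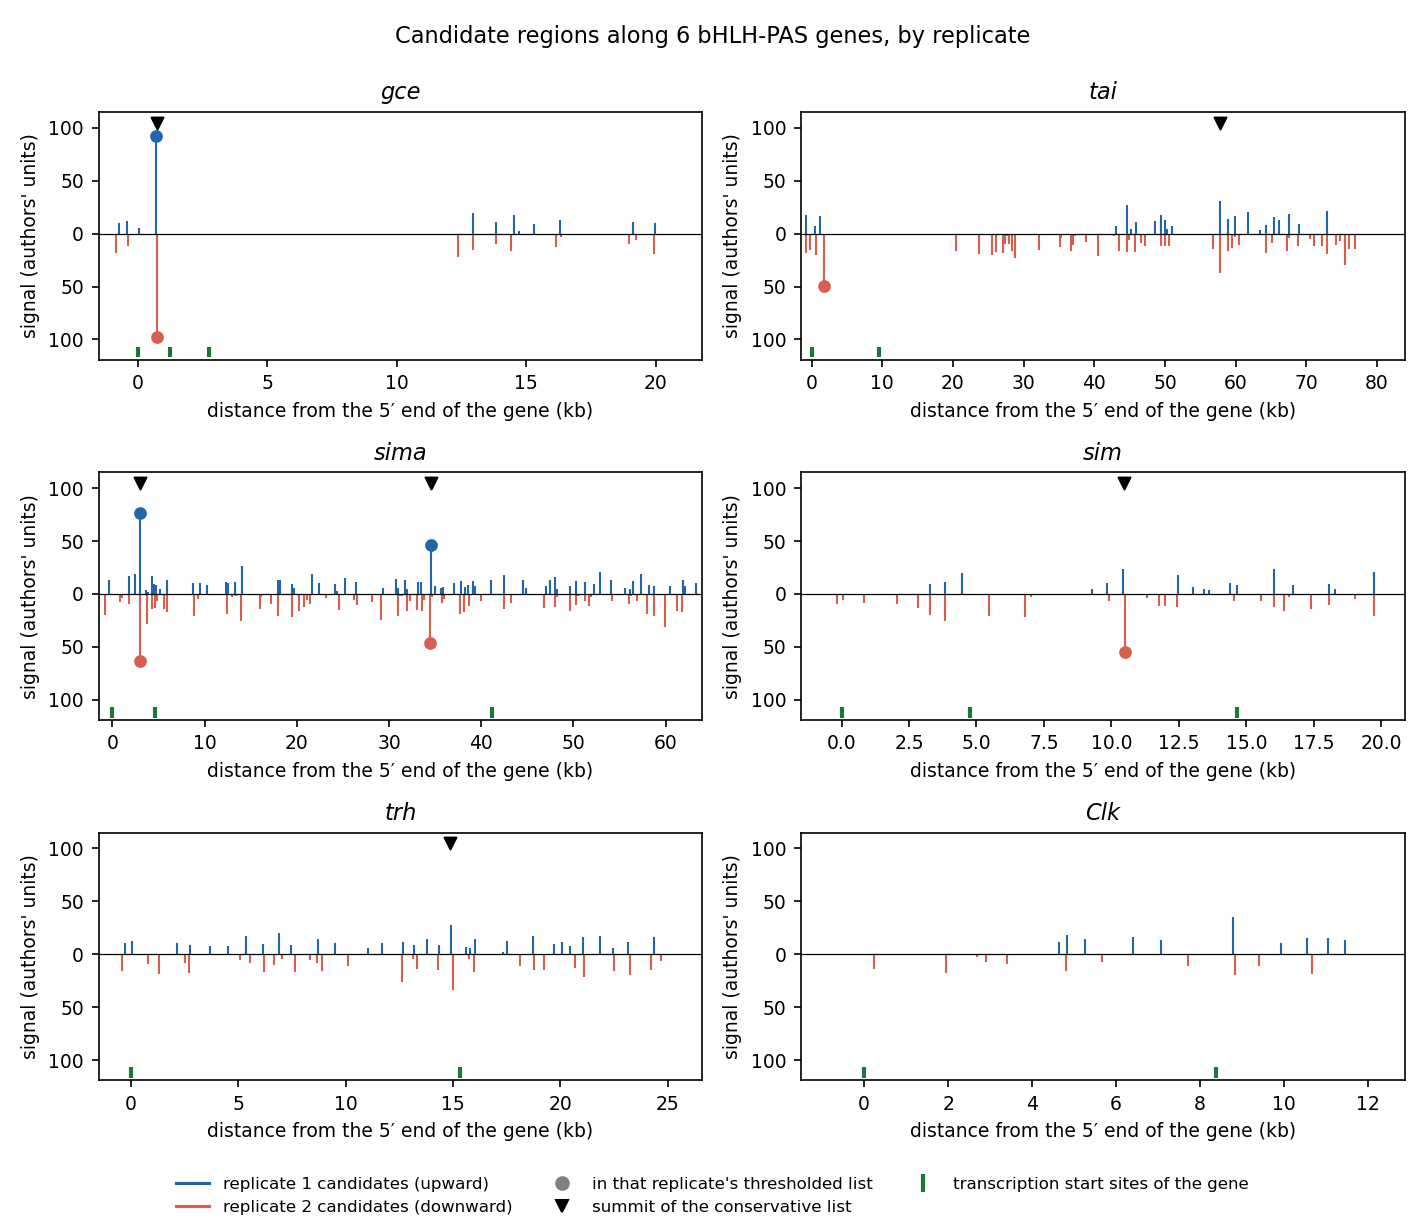
Signal (authors' units, vertical axis) of every candidate region along 6 genes against distance from the 5′ end of the gene in kb, with replicate 1 drawn upward and replicate 2 downward; circles mark candidates in that replicate's thresholded list, black triangles the summits of the conservative list, and green ticks the annotated start sites. At gce (92.7 and 97.7) and at both places in sima the 2 replicates stood together above a low row of candidates, whereas at sim the circle is in replicate 2 alone and at trh and Clk there is none.

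The gene sima (similar, FBgn0266411, 3R, 30058311 to 30121798, + strand), which encodes the Drosophila homologue of the mammalian hypoxia-inducible factor alpha subunit, was the only one of the 10 genes with 2 regions. The first (3R, 30061151 to 30061454) had a signal of 139.8 and rank 421 of 1739. Its signal was 76.1 in replicate 1 and 63.1 in replicate 2. The second (3R, 30092656 to 30092959) had a signal of 99.4 and rank 780, with 45.9 in replicate 1 and 46.6 in replicate 2. Both regions were thus past the threshold in both replicates, and at both the replicates had similar signals. The first lay in intron 1 of 2 of the 4 transcripts, 1619 bp upstream of the start of sima-RD. The second lay 34.5 kb from the 5′ end, in intron 7 of 3 of the 4 transcripts and 6712 bp upstream of the start of sima-RC, the transcript that begins farthest along the gene. The third strongest candidate at sima fell to a signal of 48.3 and rank 3219. Along the 63.5 kb of the gene there were 81 candidates, 1.26 per kb, with no long interval without one, so unlike gce and tai the 2 regions stood out from an unbroken row of weak candidates. A further region of the conservative list (signal 68.4, rank 1312) lay 1568 bp upstream of sima, outside the 1 kb window, at a promoter shared by CG7950, spn-A and Rpp14a. The regions ranked next to the first were in an intron of Ptp61F (139.8) and at the promoter of bark (139.4), and next to the second in an intron of Prp16 (99.4) and between genes (99.2).

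The partner gene tgo (tango, the homologue of mammalian ARNT, FBgn0264075, 3R, 9016773 to 9020022) was bound in no list. Its strongest candidate had a signal of 28.3 and rank 26888 and lay in a coding exon. In the replicates' own ranked lists the strongest candidates had signals of 18.2 and 21.4, ranks 15055 and 10593, and both lay at a promoter. In 52.5% of the genes of the same span class the strongest candidate was weaker or there was none. The signal of tgo was below the median of 30.2 over the genes under 5 kb that had a candidate.

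At sim (single-minded, the master gene of the embryonic midline, FBgn0004666, 3R, 13057755 to 13078124, + strand) the replicates were far apart. The region (3R, 13068061 to 13068364) had a signal of 76.3 and rank 1139 in the conservative list. In replicate 1 the overlapping candidate had a signal of 23.9, rank 4900, and in replicate 2 it had 54.6, rank 734. It passed the threshold in replicate 2 and not in replicate 1. The ratio of replicate 2 to replicate 1 was 2.29, and only 6 of the 1712 regions with a candidate in both replicates had a higher one (0.350%). Over those regions the median ratio was 0.991, with 10th and 90th percentiles of 0.683 and 1.41. The summit lay 10.5 kb from the 5′ end in intron 1 of 3 of the 4 transcripts, 4186 bp upstream of the start of sim-RA. A second candidate of sim, in its 3′ UTR, had a signal of 46.0 and rank 3884 and did not pass. The region next below that of sim in rank was in an intron of Wwox (76.2), and the one next above (76.3) lay between genes.

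The region at trh (trachealess, which sets the fate of tracheal cells, FBgn0262139, 3L, 366524 to 392633, − strand) was the weakest of the 6. It lay at 3L, 377606 to 377909, with a signal of 66.4 and rank 1366, and 21.4% of the regions were weaker. In the replicates it had signals of 28.1 and 33.5, ranks 2661 and 1815, and passed the threshold in neither. It was the only region of the 6 within 500 bp of a start of the gene itself, 442 bp upstream of trh-RE, an internal start 15.317 kb into the gene that 5 of the 7 transcripts share. The other 2 span the place with intron 4. Next to it in rank were an intron of kibra (66.4) and a promoter of 2 noncoding RNAs, lncRNA:CR44570 and lncRNA:CR44571 (66.3). The gene ss (spineless, the homologue of the mammalian aryl hydrocarbon receptor, FBgn0003513, 3R, 16374434 to 16403690) was the only one of the 6 genes of 20 kb and over that was not bound. Its strongest candidate, in an intron (3R, 16381655 to 16381958), had a signal of 40.7 and rank 6361, and 22.4% of genes of its span class had a weaker one or none. In the replicates the strongest candidates of ss had signals of 27.0 and 30.2, ranks 3058 and 2496. A bHLH-PAS gene outside the 10, dysf (FBgn0039411, 3R, 26076592 to 26098711), which acts in tracheal fusion cells, had no region in the conservative list or replicate 2's and 1 in each of the other lists. Its strongest candidate had a signal of 61.8 and rank 1690, with 52.7 in replicate 1 and 27.7 in replicate 2.

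Neither clock gene was bound. At Clk (FBgn0023076, 3L, 7763233 to 7775603, − strand), whose product with that of cyc activates per and tim, the strongest candidate (3L, 7766622 to 7766925) had a signal of 53.5 and rank 2341. It lay 456 bp from a start of Clk and so was of the promoter class. In replicate 1 the candidate had a signal of 34.8, rank 1557, and in replicate 2 it had 19.4, rank 15541. Replicate 2 was thus the low one at Clk, where at sim it was replicate 1. At cyc (FBgn0023094, 3L, 19813770 to 19815938) the strongest candidate lay in a coding exon and had a signal of 38.7 and rank 7965, with 23.9 in replicate 1 and 19.3 in replicate 2.

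**Figure D2:**
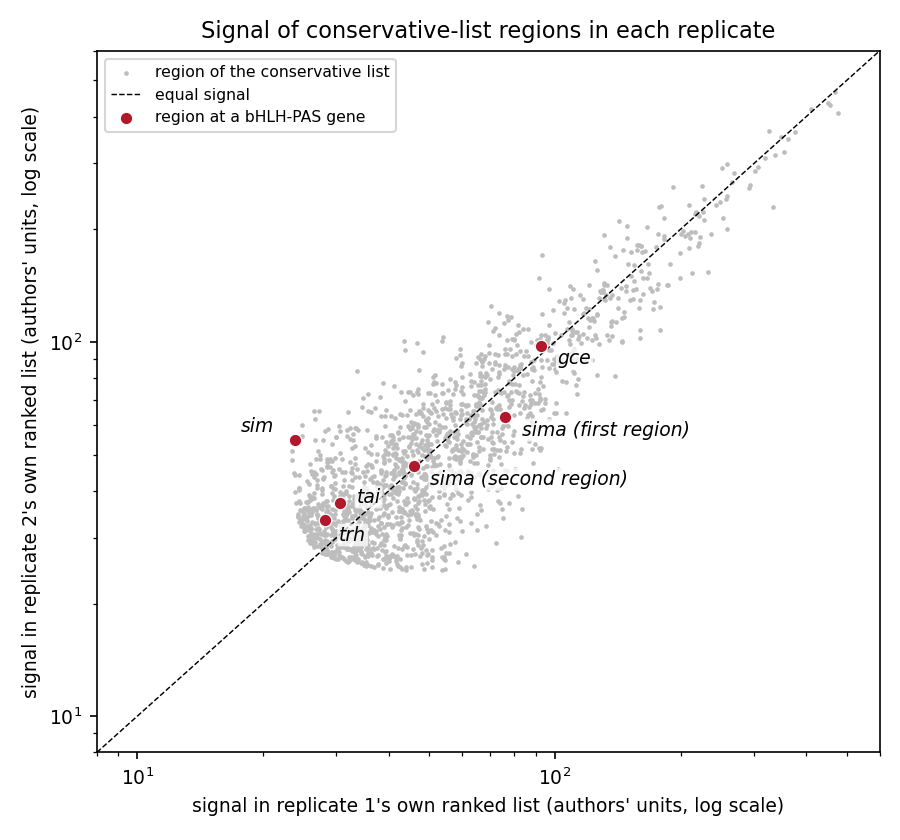
Signal of each region of the conservative list in replicate 1's own ranked list (horizontal axis) and in replicate 2's (vertical axis), authors' units, both axes logarithmic, with the line of equal signal dashed; grey points are all regions with a candidate in both replicates and red points the 6 regions at bHLH-PAS genes. The points of gce (92.7 and 97.7) and of the 2 regions of sima lie near the line, and that of sim (23.9 and 54.6) lies at the upper left edge of the cloud.

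The reproducibility values of 3 of the 6 regions lay nearest to the threshold. The authors' threshold is a −log10 of the irreproducible discovery rate (IDR) of 2, which is an IDR of 0.01. The lowest values inside it were those of sim (2.12), trh (2.25) and tai (2.43), followed by the regions of sima (2.89 and 3.55) and gce (4.12). Among the 3 strongest candidates of each gene, the highest values outside it were those of the third candidate of sima (1.83), the strongest of Clk (1.15) and the second of sim (1.10). In the other ranked list of both replicates the strongest candidate of Clk reached 1.84, also short of the threshold. Of all 1739 regions, 47.0% were in both replicates' own lists, 9.32% in replicate 2's only and 29.2% in neither. Among regions below the median signal of 91.6 the share in both was 7.25%, and among the others 86.8%. The regions of sim, trh and tai, none of them in both lists, were all below that median, and gce and the 2 of sima, all in both lists, were above it.

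The bound genes were all among the longer of the 10, but not every long gene was bound. All 5 bound genes span 20 kb or more, and the 4 genes under 20 kb (Met, Clk, tgo and cyc) were not bound. The unbound ss (29.3 kb) is longer than gce (21.3 kb), sim (20.4 kb) and trh (26.1 kb). Outside the 10, dysf (22.1 kb) was not bound in the conservative list. Over all protein-coding genes the share with a summit was 7.18% under 5 kb, 18.2% from 5 to 20 kb and 35% from 20 kb up. Of the 6 members of the longest class 5 were bound, and 2 of the 6 (gce and sima) were bound in all 3 lists, beside 19.5% of the 1020 genes of that class. Longer spans give more room for a summit, and the members were chosen with the summits known, so the count is set beside these shares only as a description. The strongest candidate of a gene was also higher in longer genes, with a median signal of 30.2 under 5 kb, 40.2 from 5 to 20 kb and 50.8 from 20 kb up. Within its own class gce was stronger than 94.3% of genes, sima than 89.1%, sim than 74.0%, tai than 72.1% and trh than 69.8%. Among the unbound genes cyc was above 79.7% and Clk above 77.9% of genes in their classes. These shares count genes without a candidate as weaker. A candidate was present in 8657 of 10476 genes under 5 kb, 2165 of 2472 from 5 to 20 kb and 1001 of 1020 from 20 kb up. The shares of cyc and Clk are thus raised more than those of sim, tai and trh. For that reason no order is read between genes of different classes.

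**Figure D3:**
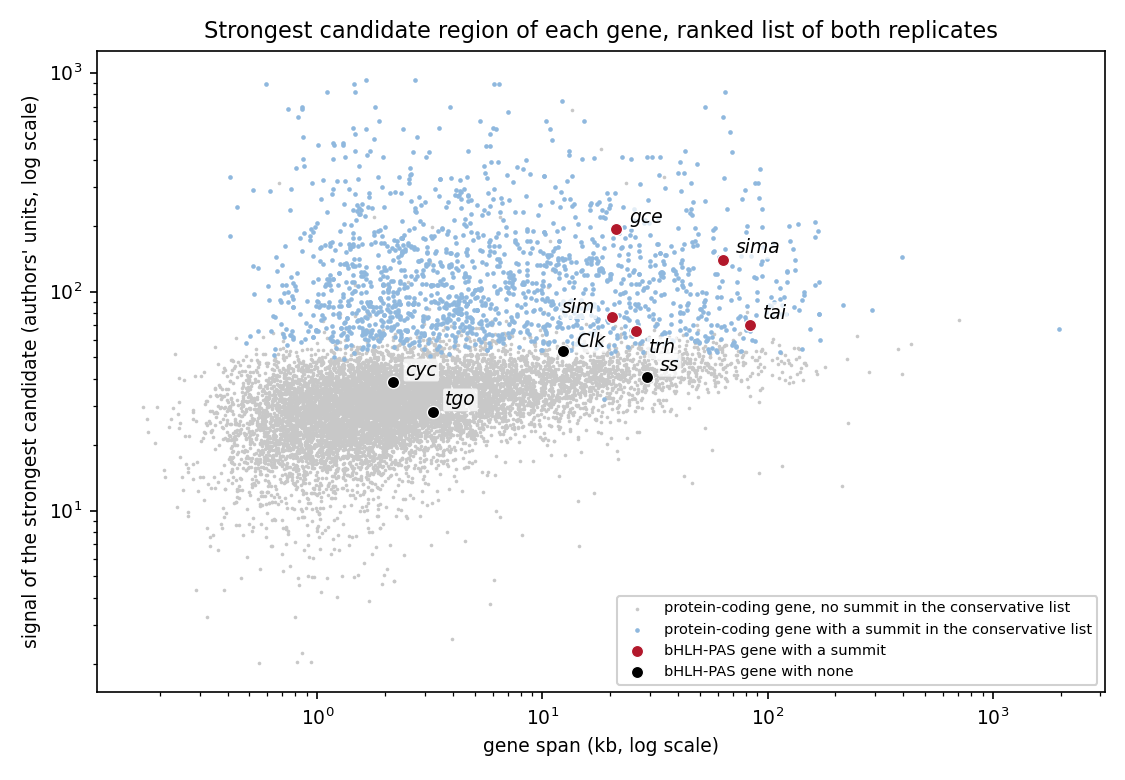
Signal of the strongest candidate of each protein-coding gene (authors' units, logarithmic vertical axis) in the candidate list behind the conservative one, against the span of the gene in kb (logarithmic horizontal axis); grey and light blue points are genes without and with a summit of the conservative list, and red and black points are bHLH-PAS genes with and without one. The 5 red points lie at spans of 20 kb or more, with gce (193) highest, while tgo (28.3) lies within the grey cloud, and Met, which had no candidate, is not drawn.

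The start sites of the genes are also given only as a description, because the choice of members used the presence of a summit and its location class. Start number and span cannot be told apart here, since the 3 members with 1 start (Met, tgo and cyc) all span less than 20 kb. Of the 5 bound genes each has at least 2 annotated start sites, as do Clk and ss, although the 2 of ss are 0.007 kb apart. Over all genes, 7.62% of those with 1 start and 21.0% of those with several were bound, and 40.6% of those with several starts and a span of 20 kb or more. At the members, 5 of the 6 summits lay upstream of the nearest start of their own gene, and each of these lay within the gene, upstream of an internal start. The exception was the region of tai. Over all genes with several starts, 377 of 822 summits (45.9%) lay upstream of the nearest start. By class, 4 of the 6 regions were intronic and 2 at promoters, beside 37.4% and 43.4% of all regions. The sets are unlike, since 15.6% of all regions were intergenic and the 6 were taken from gene spans and the 1 kb upstream. None of the 6 was of an exon class, but the promoter class was given first, so the 2 promoter regions were not checked for exons.

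The sequences printed above differed widely in base composition. The GC content of the window at gce was 24.4%, and 97.3% of the windows of the conservative list were higher. At tai it was 46.3%, and the others ranged from 32.3% at the first region of sima to 40.3% at sim. Over all regions of the list the median was 35.3%, with 10th and 90th percentiles of 27.9 and 47.3%, and over all candidates it was 46.3%. Motifs were searched on both strands in these windows and in all windows of the list and of the candidates. The E-box CANNTG was in 3 of the 6 windows, as CAAGTG at gce, CAGCTG at the second region of sima and CAAATG at sim, beside 59.3% of all windows of the list and 67.6% of candidates. CATATG, an E-box known to be bound by dimm, was in none of the 6, beside 7.30% of the list and 5.03% of candidates.

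Motifs known for the family itself were each in at most 1 of the 6 windows, too few windows to set a share against those of the list. TACGTG, the element of sim, trh and their partner tgo, was in 1 window, that of sim, 65 bp from the summit and on the reverse strand, so that it reads CACGTA in the line above. It was in 4.49% of the windows of the list and 4.64% of candidates. Its core ACGTG, which the hypoxia response element also holds, was in the same window only, at the same bases, beside 14.2% of the list and 17.3% of candidates. GCGTG, a core of the hypoxia response element and of the site of ss with tgo, was in 1 window, the second of sima. The match lay 71 bp before the summit. This core was in 16.8% of the list and 25.2% of candidates. CACGTG, the E-box of Clk with cyc, and CACGCG, a site of Met and gce, were in none of the 6, beside 1.67 and 2.65% of the list. Some of these motifs overlap one another, and CACGTG is itself an E-box. A match is a run of letters and was not tested as a site.

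Other genes of the same pathways were set beside the 10, from a list of 36 symbols written with results of the series known, of which 35 had a single match. Of these 35 genes, 14 held a summit of the conservative list, 11 of replicate 1's, 10 of replicate 2's, and 7 were in all 3 lists. The shares over all protein-coding genes were 11.2%, 8.21% and 7.8% in the conservative list, replicate 1's and replicate 2's. No share over all protein-coding genes is given for all 3 lists together, here or for the groups below. Among genes of 20 kb and over it was 19.5%, beside 2 of the 10 listed genes of that class. By span the conservative list held 8 of 10 listed genes of 20 kb and over, 4 of 11 from 5 to 20 kb and 2 of 14 under 5 kb, beside 35%, 18.2% and 7.18% of all genes of those spans. The counts by pathway that follow are small and mix spans, so they are to be read against the same 11.2% and these shares by span. In the juvenile hormone and ecdysone group 4 of 14 were bound. They were the ecdysone response genes br (99.8, intron, shared with Mur2B) and Eip75B (92.3, intron, the strongest of 3), the ecdysone receptor gene EcR (85.5, intron) and the chaperone gene Hsp83 (177.8, intron, the stronger of 2). Of these only Hsp83 was in all 3 lists, and Kr-h1, the best known target of the juvenile hormone receptors, was in none. In the hypoxia group 3 of 7 were bound, none of the 3 as long as 20 kb. They were Hph, whose product marks sima protein for decay (79.9, intron, shared with Tim17a2), the lactate dehydrogenase gene Ldh (131, promoter) and the growth inhibitor gene chrb (99.0, intron). Each was in all 3 lists, but no such share is given for genes of these spans, so nothing about the group is read from that. The FGF gene bnl was bound in replicate 2's list alone.

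In the clock group 5 of 8 were bound, beside 11.2% of all genes in the conservative list. In all 3 lists there were 3 of them, a count with no share over all genes beside it, so nothing is read from it. Of the 5, 3 (vri, Pdp1 and sgg) span 20 kb or more, a class in which 35% of genes were bound. These were the repressor genes vri (131, promoter, the stronger of 2) and cwo (103, intron), the activator gene Pdp1 (65.3, intron), and the kinase genes dco (60.9, intron) and sgg (239, promoter, the stronger of 2). Like Clk and cyc, per, tim and cry were not bound. In the midline and trachea group 2 of 6 were bound, both of 20 kb and over, the midline repellent gene sli (91.9, intron) and the ETS factor gene pnt (70.3, intron), neither of them in all 3 lists. The region of pnt was ranked just below that of tai, and an intron of kdn (70.5) just above it.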

How the data were processed

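ChIP-seq for dimm-eGFP was analysed from 8 deposited peak lists of 2 biological replicates on dm6, per the labels. Which aligner, peak caller and normalization were used is not given in the sources used here. The signal of each peak is the value the authors deposited and was compared within a list. Replicates were also set side by side, and the ratio over all regions is given only with sim. The ranked lists also hold the deposited −log10 of the global IDR. No read counts were used, so the depth is unknown.

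Only the chromosome arms, chromosome 4 and the sex chromosomes were used, and regions overlapping by at least 1 bp were merged under the strongest summit, which turned 1807 deposited regions of the conservative list into 1739. Genes came from Ensembl release 115 (BDGP6.54) without transposable elements, and bases from the Release 6 genome, in which 99.5% of 30773 coding sequences began with ATG. A gene was bound where a summit lay in its span or within 1 kb upstream. Promoter meant within 500 bp of any annotated start. Work was done in Python 3.11.15 with pandas 2.3.3 and numpy 2.4.6. Merging was tried on simulated regions placed inside gene territories, a trial that could not test the assignment of summits to genes. The members and lists were chosen with earlier results of these data known, so no test was made. All 10 members, the bound genes of the pathway list and the regions next in rank were named by rule, and dysf was added because dys had no single match. Alternatives were the other lists, each replicate alone, the stronger 50% of regions, other territories, any overlap, and no merging.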

Additional observations from a re-analysis of the deposited data

How the results depend on the processing

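The same 5 genes (gce, sima, sim, trh and tai) were bound in the list not marked conservative, with the gene span alone, with 5 kb upstream, with any overlap and without merging; over all protein-coding genes the share bound was 5.78% with the span alone and 16.3% with 5 kb upstream. Among the stronger 50% of regions 2 of the 10 genes were bound (gce and sima), beside 6.40% of all genes, with 3 regions and 9 pathway genes. With only summits within 500 bp of a start of the gene itself, 1 of the 10 was bound (trh), beside 6.92% of all genes, with 1 region and 5 pathway genes. Leaving out 1 replicate gave 2 to 4 genes, 3 to 5 regions, and 10 to 11 pathway genes, beside 7.8 to 8.21% of all genes. The median rank of the members' strongest candidates was 2155.5 to 2661 in the single replicates and 1486 with both, but the lists differ in length and replicate 2's median includes Met, so no change can be read from these ranks. Without replicate 2, sim, trh and tai were lost. Without replicate 1, trh was lost, and tai stayed bound only through its other region, which the counts above include. The region of tai in the conservative list passed in neither replicate alone. The causes were not tested. No paired analysis was possible because the series has 1 group. The depth is unknown, and with 2 replicates no spread beyond the pair can be given.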
